A study of Mus musculus with 12 samples.

Results

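Smooth muscle contractile genes were followed on 12 arrays of colon RNA from mice that lacked Atf6, lacked Atf6b or were wild type (WT). The set holds 10 genes, chosen by name as components of the contractile apparatus of smooth muscle: Acta2, Actg2, Myh11, Tagln, Des, Cnn1, Mylk, Synm, Lmod1 and Hspb6. They were found through the accession of each probe, which gave 15 probes for the 10 genes among 23239 genes or transcripts tested. The samples were colons of male C57BL/6J mice, and each of 6 groups had 2 arrays. The groups were ATF6aKO with dextran sulfate sodium (DSS), ATF6aKO untreated (UT), ATF6bKO with DSS, ATF6bKO UT, WT titled DSS and WT titled UT. DSS, a polymer that damages the lining of the colon, was given for 3 days as 3 percent of the drinking water. The labels do not say how either allele was made. Nor do they say whether the 2 samples of each group are 2 animals, and p-values therefore cover only the spread between samples, which may be technical.

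ATF6a and ATF6b, the products of Atf6 and Atf6b, are transcription factors held in the membrane of the endoplasmic reticulum until unfolded proteins build up there. The wall of the colon holds a thin muscle sheet beneath the mucosa and thick circular and longitudinal layers outside it. A rise in calcium activates myosin light chain kinase, the product of Mylk, which phosphorylates the light chain of smooth muscle myosin and lets it pull on actin filaments. Many genes of this machinery carry binding sites for serum response factor, called CArG boxes, and their transcripts are abundant in muscle and scarce in epithelium. In RNA from a piece of the wall, fewer muscle cells and less of a transcript per cell cannot be told apart.

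A level is the base 2 logarithm of an array's processed signal minus that of its 75th percentile, so a level of 0 is the brightness of the signal at that percentile. Levels of different probes are not set against each other, because brightness depends on the probe. All 15 probes of the contractile genes were well above background on 12 of 12 arrays, and none was saturated. Smooth muscle transcripts were thus measured in every sample of this labelled tissue.

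The levels of the targeted genes followed the knockout labels. Atf6 lay between -3.23 and -3.04 on the 4 ATF6aKO arrays, against 0.60 to 1.22 on the other 8. Its probe was still well above background on all 12 arrays, the ATF6aKO arrays included. Atf6b lay between -7.64 and -4.14 on the 4 ATF6bKO arrays, against -1.10 to 0.16 on the other 8, and was well above background on 1 of the 4 ATF6bKO arrays. The 4 WT samples carry labels that conflict, since titles name DSS where the descriptions and treatment fields name no treatment, and the reverse. The WT groups here follow the titles, and the sign of their difference was not read as an effect of DSS. In the authors' value table the 4 WT columns hold the arrays of the other WT group, so the titles with the scanner files and the descriptions with the value table give an array the same treatment. Each genotype was hybridised on 1 slide of 4 arrays and scanned at 1 time of its own, so genotype, slide and scan cannot be told apart, whereas DSS and UT arrays of a genotype shared a slide.

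One array stood apart in muscle of another kind. On ATF6bKO DSS replicate 2 the mean of 10 skeletal muscle genes, each centred on its own mean over the 12 arrays, was 4.03, against -0.85 to 0.14 on the other 11. Tnnc2, the troponin C of fast skeletal muscle, had a level of 5.04 there and at most -1.35 on any other array. Myh1, a fast skeletal myosin, had a level of 2.52 there and at most -3.75 elsewhere. Des, Synm and Hspb6 are also active in skeletal muscle, as background. For the contractile genes, the DSS comparisons that use this array are given with and without it. The comparisons of other gene lists include it throughout and were not repeated without it.

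Sequences before a start of 3 of the contractile genes are shown because they hold a relaxed match to the CArG box. RefSeq windows on build GRCm38.p6 were found for 7 of the 10 genes, in 8 windows, and the 250 bases before each start were searched. Not every start is the outermost one of its gene. The Mylk window, the Hspb6 window shown and most of the Acta2 window lie within the annotated span of the gene. The search was for CCNNNNNNGG with at least 5 of the 6 central bases A or T, a form that reads alike on both strands and also admits the full CArG box, with all 6. It matched in 3 of the 7 genes and in 8.59% of all 32851 windows of this length. A full CArG box was in none of the 8 windows of these genes and in 1.47% of all windows. Matched bases are in capitals, and each sequence reads 5′ to 3′ on the strand of its gene. The Acta2 window is chr19:34255374-34255623 on the minus strand, with matches that begin 84 and 34 bases before the start. The Synm window is chr7:67759743-67759992 on the minus strand, and the Hspb6 window, the downstream of its pair, is chr7:30553051-30553300 on the plus strand. A match describes the letters of a window and is not a measured binding site.
Acta2: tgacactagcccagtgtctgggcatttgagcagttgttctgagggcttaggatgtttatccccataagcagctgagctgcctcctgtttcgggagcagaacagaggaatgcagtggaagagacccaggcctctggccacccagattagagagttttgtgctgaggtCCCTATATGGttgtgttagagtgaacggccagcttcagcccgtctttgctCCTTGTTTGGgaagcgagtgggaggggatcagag
Synm: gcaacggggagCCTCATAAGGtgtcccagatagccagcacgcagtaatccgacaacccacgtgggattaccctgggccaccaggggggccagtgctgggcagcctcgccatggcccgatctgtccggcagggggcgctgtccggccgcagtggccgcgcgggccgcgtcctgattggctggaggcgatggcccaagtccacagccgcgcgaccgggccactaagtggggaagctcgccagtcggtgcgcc
Hspb6: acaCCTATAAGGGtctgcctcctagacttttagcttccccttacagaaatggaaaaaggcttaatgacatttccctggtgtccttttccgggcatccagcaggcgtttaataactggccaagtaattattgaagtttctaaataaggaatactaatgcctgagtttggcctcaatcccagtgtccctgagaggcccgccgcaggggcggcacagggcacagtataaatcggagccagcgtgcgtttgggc

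The set was first summarised as the mean over the genes of each gene's level minus its own mean over the 12 arrays. This mean served as a gauge of muscle layer content, but it does not tell fewer muscle cells from less transcript per cell. As a group mean it was highest in ATF6aKO DSS, whose arrays gave 0.47 and 0.40. The ATF6aKO UT arrays gave -0.14 and -0.20. ATF6bKO DSS replicate 2 lay between the ATF6aKO DSS arrays, at 0.46, with all 10 genes above their own means. All 10 genes were above their own means on both ATF6aKO DSS arrays, and 2 were on each ATF6aKO UT array.

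The ATF6bKO arrays gave -0.16 and 0.46 with DSS, against 0.29 and 0.05 untreated. Here the spread within a group covered the other group: the DSS arrays had an SD of 0.441 and the UT arrays of 0.173 (n = 2 each). All 10 genes were higher on ATF6bKO DSS replicate 2, the array with the skeletal muscle transcripts, than on replicate 1, by a median of 0.58. The gap ran between 0.24 for Lmod1 and 0.94 for Actg2. The part of skeletal muscle in this gap was not tested.

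WT titled DSS arrays gave 0.02 and 0.14, against -0.98 and -0.35 on WT titled UT arrays. WT titled UT replicate 1 was the lowest of the 12, with 0 of 10 genes above their own means. Its partner was higher in 9 of 10 genes, by a median of 0.52 over the 10. The mean of 15 epithelial genes was -0.06 and 0.21 on the WT titled UT arrays and lay between -0.20 and 0.35 on all 12. Only WT titled DSS replicate 2, at 0.35, was above the 0.21 of WT titled UT replicate 2. The part of epithelium in the contractile levels of these arrays was not tested.

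In the order of group means, ATF6aKO DSS (0.44) came first, then ATF6bKO UT (0.17), ATF6bKO DSS (0.15), WT titled DSS (0.08), ATF6aKO UT (-0.17) and WT titled UT (-0.66). Without its replicate 2, ATF6bKO DSS is the single value of -0.16, next to ATF6aKO UT. ATF6bKO UT, ATF6bKO DSS and WT titled DSS did not differ from their neighbours among these 3 beyond their spread. The arrays of the other neighbours did not overlap, with 2 arrays a group.

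**Figure D1:**
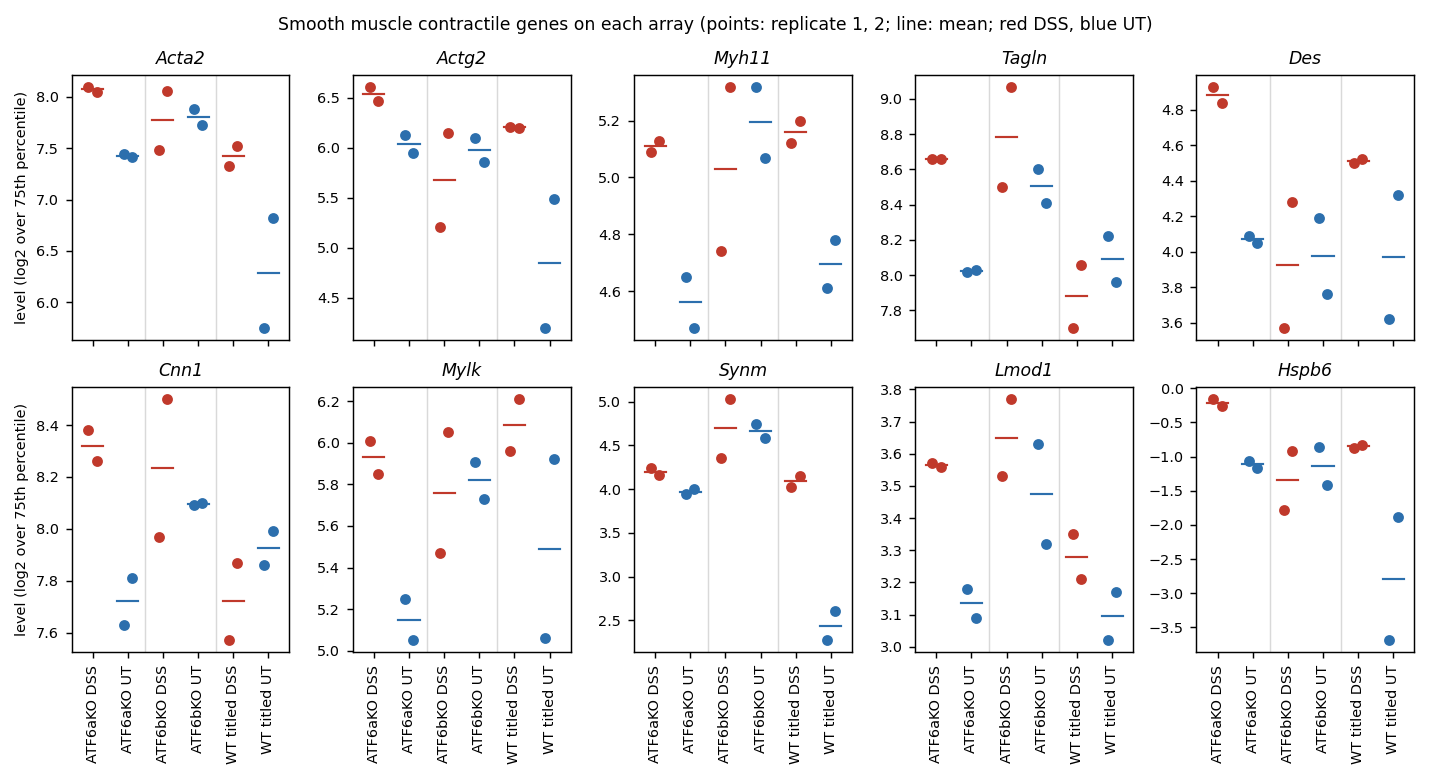
Levels of the 10 contractile genes (log2 signal over each array's 75th percentile) on each of 12 arrays, with red points for DSS, blue points for UT and a line at the group mean of 2 arrays; the vertical scale differs between genes. ATF6aKO DSS points lie above ATF6aKO UT points in all 10 panels, ATF6bKO points overlap, and WT titled UT replicate 1 has the lowest level of Acta2, Actg2, Synm, Lmod1 and Hspb6.

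The actins come first by role. Acta2 encodes the smooth muscle alpha actin of vessels and visceral muscle, and its brightest probe read 8.10 and 8.05 on ATF6aKO DSS arrays, against 7.44 and 7.41 on ATF6aKO UT arrays. In ATF6bKO it read 7.48 and 8.06 with DSS, against 7.88 and 7.73 untreated. WT titled DSS arrays read 7.33 and 7.52, against 5.75 and 6.82 on WT titled UT arrays. The groups separated in ATF6aKO and in WT and overlapped in ATF6bKO. Actg2, the gamma actin that predominates in gut muscle, read 6.61 and 6.47 with DSS in ATF6aKO, against 6.13 and 5.95 untreated. In ATF6bKO it read 5.21 and 6.15 with DSS, against 6.10 and 5.86 untreated. In WT it read 6.21 and 6.20 under the DSS title, against 4.20 and 5.49 under the UT title. WT titled UT replicate 1 was more than 1 log2 unit below its partner for both actins.

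The motor and its kinase followed. Myh11, the heavy chain of smooth muscle myosin, read 5.09 and 5.13 on ATF6aKO DSS arrays, against 4.65 and 4.47 on ATF6aKO UT arrays. ATF6bKO arrays read 4.74 and 5.32 with DSS, against 5.32 and 5.07 untreated. WT arrays read 5.12 and 5.20 under the DSS title, against 4.61 and 4.78 under the UT title. The separation in ATF6aKO and WT and the overlap in ATF6bKO were the same as for the actins. Mylk, the kinase that starts contraction, read 6.01 and 5.85 with DSS in ATF6aKO, against 5.25 and 5.05 untreated. It read 5.47 and 6.05 with DSS in ATF6bKO, against 5.91 and 5.73 untreated. WT titled DSS arrays read 5.96 and 6.21, against 5.06 and 5.92 on WT titled UT arrays. Mylk was low on 1 of the 2 WT titled UT arrays.

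Tagln and Cnn1, actin-binding proteins of the calponin family, did not separate in WT. Tagln (transgelin) read 8.66 on both ATF6aKO DSS arrays, against 8.02 and 8.03 on ATF6aKO UT arrays. In ATF6bKO it read 8.50 and 9.07 with DSS, against 8.60 and 8.41 untreated. WT arrays read 7.70 and 8.06 under the DSS title, against 8.22 and 7.96 under the UT title. Its level on WT titled UT replicate 1, the lowest array for 5 other members, was the higher of that pair. Cnn1 (calponin, an inhibitor of the actomyosin ATPase) read 8.38 and 8.26 with DSS in ATF6aKO, against 7.63 and 7.81 untreated. ATF6bKO arrays read 7.97 and 8.50 with DSS, against 8.09 and 8.10 untreated. WT arrays read 7.57 and 7.87 under the DSS title, against 7.86 and 7.99 under the UT title. Lmod1, which nucleates actin filaments in smooth muscle, spanned the narrowest range of the 10, 3.02 to 3.77. Its ATF6aKO DSS arrays read 3.57 and 3.56, against 3.18 and 3.09 on ATF6aKO UT arrays. In ATF6bKO it read 3.53 and 3.77 with DSS, against 3.63 and 3.32 untreated. In WT it read 3.35 and 3.21 under the DSS title, against 3.02 and 3.17 under the UT title.

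Des and Synm encode intermediate filament proteins. Des encodes desmin, which ties the contractile units to the cell cortex, and it read 4.93 and 4.84 with DSS in ATF6aKO, against 4.09 and 4.05 untreated. In ATF6bKO it read 3.57 and 4.28 with DSS, against 4.19 and 3.76 untreated. WT titled DSS arrays read 4.50 and 4.52, against 3.62 and 4.32 on WT titled UT arrays. Synm encodes synemin, a partner of desmin, and read 4.03 and 4.15 on WT titled DSS arrays, against 2.27 and 2.61 on WT titled UT arrays. On this brighter probe both WT titled UT arrays were below the other 10 arrays, which lay between 3.94 and 5.03. On the second probe they read 2.634 and 2.661, level with the 2.723 and 2.637 of the ATF6aKO UT arrays. Hspb6, a small heat shock protein that is phosphorylated when smooth muscle relaxes, read -0.87 and -0.83 on WT titled DSS arrays, against -3.69 and -1.88 on WT titled UT arrays. Its ATF6aKO DSS arrays read -0.16 and -0.26, the highest of the 12, against -1.06 and -1.17 on ATF6aKO UT arrays. Its ATF6bKO arrays read -1.78 and -0.92 with DSS, against -0.86 and -1.42 untreated.

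The first comparison asked whether DSS changed the set in mice without Atf6. Every contractile gene was higher on both ATF6aKO DSS arrays than on both ATF6aKO UT arrays, a separation seen in 36.2% of all genes. The differences, DSS minus UT, ran between 0.23 for Synm and 0.91 for Hspb6, with a median of 0.62 on the log2 scale, against 0.04 over all genes. Des differed by 0.82 ± 0.29 (SE), Mylk by 0.78 ± 0.30, Tagln by 0.63 ± 0.22 and Cnn1 by 0.60 ± 0.21. Under limma with Benjamini-Hochberg adjustment over all genes, 0 of 10 passed the adjusted p threshold of 0.05, where 6.33% of all genes did. Without adjustment 6 of 10 had p under that threshold, and adjusted p-values ran between 0.12 and 0.591. No alternative processing turned the sign of any gene here, and the mean difference over the 10 stayed between 0.56 and 0.64 over 24 alternatives, against 0.61. Leaving out either WT titled UT array, which enters only the estimate of the spread, put Mylk past the threshold at an adjusted p of 0.049.

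Without Atf6b the same comparison gave no separation in either direction for any of the 10 genes, where 26.5% of all genes were higher and 37% lower on both DSS arrays. Differences, DSS minus UT, ran between -0.30 for Actg2 and 0.28 for Tagln, with a median of -0.04, against -0.06 over all genes. By limma 0 of 10 passed, where 12.9% of all genes did, and 0 of 10 had an unadjusted p under 0.05. The mean over the 10 was -0.02, and a single array set its sign. It was -0.33 without ATF6bKO DSS replicate 2, which carried the skeletal muscle transcripts, and 0.29 without replicate 1.

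Between the WT groups 4 of the 10 genes passed, all higher on WT titled DSS arrays than on WT titled UT arrays, where 31.7% of all genes passed and 14.7% passed as higher. Hspb6 was higher by 1.93 ± 0.52 (SE), a 3.82-fold difference with an adjusted p of 0.0228 by limma. Synm was higher by 1.65 ± 0.23, with an adjusted p of 0.00269 by limma. Actg2 was higher by 1.36 ± 0.41 (adjusted p = 0.0355, limma) and Acta2 by 1.14 ± 0.32 (adjusted p = 0.028, limma). Tagln differed by -0.21 ± 0.22 and Cnn1 by -0.20 ± 0.21, with adjusted p-values of 0.505 and 0.481 by limma, and the remaining 4 by 0.18 to 0.60. Quantile normalization turned Tagln to 0.55 and Cnn1 to 0.52, neither past the threshold, put Myh11 past it at 0.81 (adjusted p = 0.0256, limma) and gave a mean over the 10 of 1.13, against 0.75. In 8 of 10 genes, all but Tagln and Cnn1, both WT titled DSS arrays were above both WT titled UT arrays, as in 30.2% of all genes. Under the descriptions and treatment fields the same values carry the opposite sign.

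The WT calls rested on few arrays. Actg2 missed the threshold with a replicate block (adjusted p = 0.0566, limma), with no filter on dim probes (0.0601) and without any 1 ATF6aKO array (0.0535 to 0.0537). Without WT titled UT replicate 1 the difference of Hspb6 was 1.02, that of Actg2 0.71 and that of Acta2 0.61, and 1 of 10 genes, Synm, passed. Synm alone also passed without either WT titled DSS array and when only the 4 WT arrays were fitted. Without WT titled UT replicate 2, which was nearer to the other groups, 6 passed, with Des at 0.88 and Mylk at 1.03 added.

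**Figure D2:**
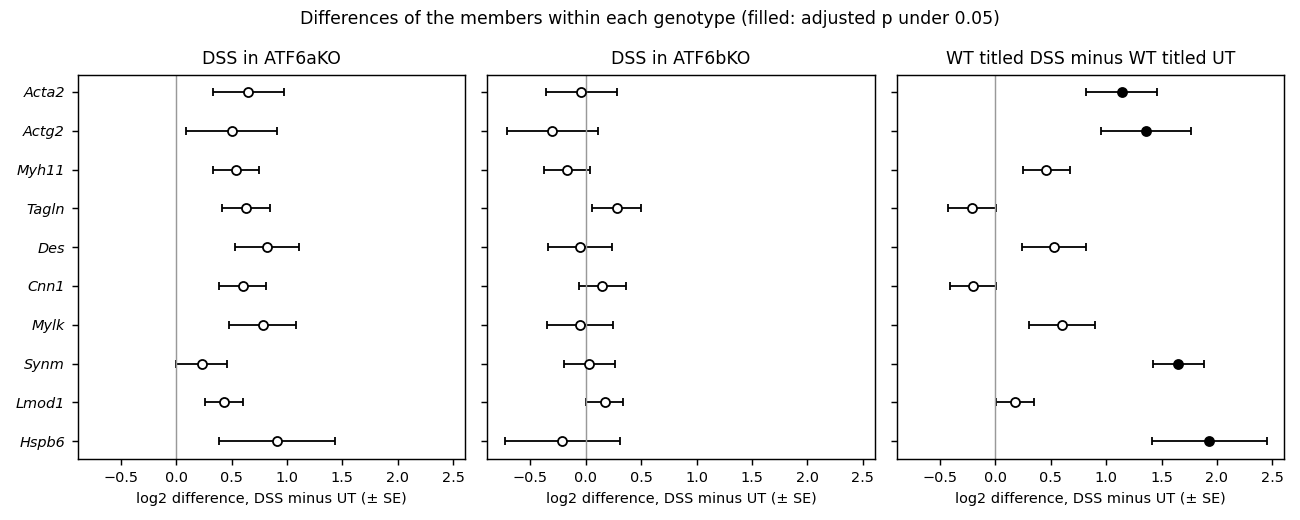
Difference between group means, DSS minus UT, for each of the 10 contractile genes within each genotype, on the log2 scale, with bars of 1 SE from the fit of 12 arrays (2 arrays a group). Filled points passed an adjusted p of 0.05: 0 in ATF6aKO, where all 10 points lie above 0, 0 in ATF6bKO, and 4 in WT, where the groups follow the titles.

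The probes of a gene gave a further measure. Acta2, with 3 probes, differed between WT titled DSS and WT titled UT by 1.14, 1.54 and 1.39, in order of brightness. The 2 Synm probes disagreed in size, at 1.65 for the brighter and 0.52 for the other, whose adjusted p by limma was 0.101. Tagln gave -0.21 and 0.11, and Mylk 0.60 and 0.39. In ATF6aKO the 9 probes of these 4 genes all had a positive difference, DSS minus UT, between 0.23 and 0.78. The probe sequences were not used here, so which transcript forms each probe reads was not tested.

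**Figure D3:**
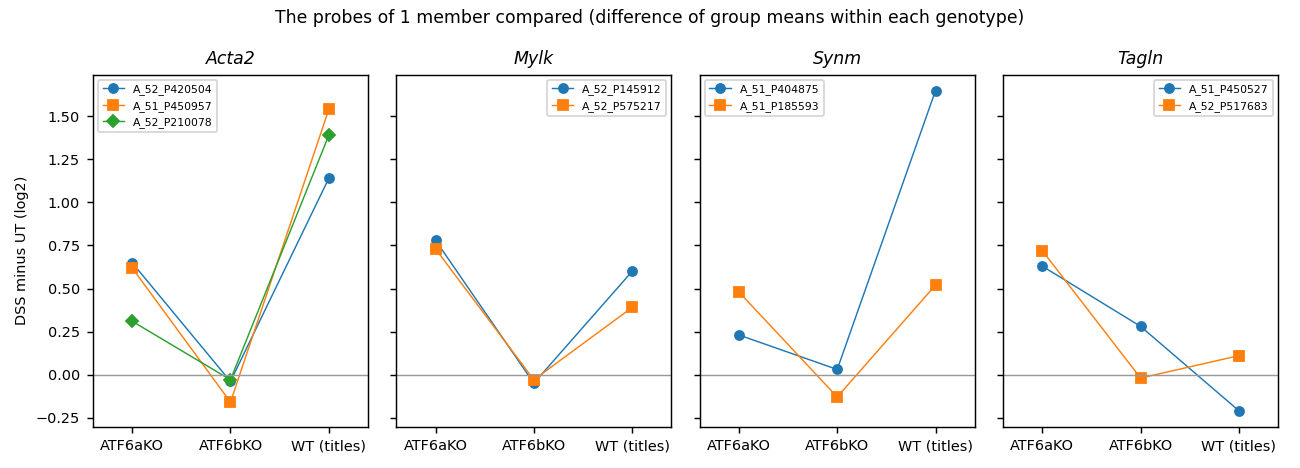
Difference between group means on the log2 scale, DSS minus UT, for each probe of the 4 contractile genes with more than 1 probe, in ATF6aKO, ATF6bKO and WT (2 arrays a group, WT by titles). Lines join the values of a probe. The 9 probes lie above 0 in ATF6aKO, and the Synm probes part in WT, at 1.65 and 0.52.

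Whether the response to DSS differed between the knockouts was tested directly. The difference of responses, ATF6aKO minus ATF6bKO, was positive for all 10 genes, with a median of 0.70 and a range of 0.20 for Synm to 1.12 for Hspb6. By limma 0 of 10 passed, with adjusted p-values between 0.605 and 0.93, and 0% of all genes passed, although 1858 of them had an unadjusted p under 0.05. Myh11, at 0.71 ± 0.30 (SE), was the 1 contractile gene with an unadjusted p under 0.05. The mean over the 10 was 0.63, and it was 0.94 without ATF6bKO DSS replicate 2 and 0.32 without replicate 1. A difference between the knockouts in these genes was therefore not shown.

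Over both knockouts together, with genotype as a term, the DSS minus UT difference was above 0 for all 10 genes, with a median of 0.33. By limma 0 of 10 passed, where 29.1% of all genes did, and 3 of 10 had an unadjusted p under 0.05. Tagln came nearest, at 0.46 ± 0.15 (SE) with an adjusted p of 0.0587 by limma, and it passed under 4 alternatives with adjusted p-values of 0.0407 to 0.0449. Without ATF6bKO DSS replicate 1 there were 4 genes past the threshold, Acta2, Tagln, Des and Cnn1. Without replicate 2 there were 0, the mean over the 10 was 0.23, against 0.29 with all 8 arrays, and Actg2 stood at -0.01. The ATF6aKO and ATF6bKO arrays of this fit are those of the separate comparisons, so it is no further evidence.

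The comparisons between genotypes had 4 arrays a side and cannot be told apart from slide and scan. ATF6aKO minus WT was higher for 2 of the 10 genes, Hspb6 by 1.16 ± 0.39 (SE; adjusted p = 0.0469, limma) and Acta2 by 0.90 ± 0.25 (adjusted p = 0.0247, limma), where 35.3% of all genes passed and 14.7% as higher. With WT treatments by description the values were the same and neither gene passed, at adjusted p-values of 0.191 and 0.13 by limma. Neither passed without ATF6aKO UT replicate 1, without ATF6aKO UT replicate 2 or without WT titled DSS replicate 1. Hspb6 also missed the threshold without WT titled DSS replicate 2, without either ATF6aKO DSS array, with a replicate block and with no filter on dim probes, at adjusted p-values of 0.0552 to 0.0684 by limma. The second Acta2 probe gave 0.58 with an adjusted p of 0.169 by limma. ATF6bKO minus WT was higher for 1 gene, Synm, by 1.41 ± 0.35 (adjusted p = 0.0221, limma), where 29.4% of all genes passed and 13.7% as higher. The other Synm probe gave 0.25 with an adjusted p of 0.422. The brighter probe missed the threshold without WT titled UT replicate 2 and without either ATF6bKO UT array, at adjusted p-values of 0.057 to 0.0639 by limma. Tagln, at 0.66 ± 0.21, had an adjusted p of 0.0502 by limma. ATF6aKO minus ATF6bKO gave 0 of 10, where 9.13% of all genes passed, with Synm at -0.60 ± 0.15 and an adjusted p of 0.0555 by limma. The comparisons with WT share the WT arrays.

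Other genes of smooth muscle were taken from 3 lists. Of 25 further contractile and cytoskeletal genes, 22 were measured, and DSS minus UT in ATF6aKO was above 0 for 20, with a median of 0.49. With DSS in ATF6aKO 2 of 22 rose and 0 fell, where 6.33% of all genes passed. These were Cald1, encoding caldesmon, which holds back myosin on actin, by 0.83 ± 0.20 (SE; adjusted p = 0.0421, limma), and Pgm5, encoding a protein of muscle adhesion plaques, by 0.70 ± 0.17 (adjusted p = 0.0467, limma). In ATF6bKO the median was 0.00 and 1 of 22 changed, where 12.9% of all genes did: Casq2, a calcium store protein, fell by 0.97 with DSS (adjusted p = 0.0156, limma). Over both knockouts 6 of 22 rose with DSS and 0 fell, where 29.1% of all genes passed, with Cald1 (0.72), Sgcd (0.53) and Pgm5 (0.49) the largest. Between the WT groups 4 of 22 were higher under the DSS title and 2 lower, near the 14.7% of all genes that passed as higher and the 31.7% that passed in all. Svil, an actin-binding membrane protein, was higher by 1.13 ± 0.16 (adjusted p = 0.00292, limma) and Tln1 (talin) by 1.11 ± 0.31 (adjusted p = 0.0279, limma). The lower ones were Sgcd, a sarcoglycan, at -0.99, and Casq2 at -0.97. For ATF6aKO minus WT 5 of 22 were higher and 2 lower, where 35.3% of all genes passed. The largest were Tln1 (1.58), Actn1 (1.19) and Pdlim7 (0.86), against Dmd (-0.82) and Cald1 (-0.57). For ATF6bKO minus WT, Tln1 (1.30) and Flna (0.60) were higher and Dmd (-0.83) lower, where 29.4% of all genes passed. For ATF6aKO minus ATF6bKO, Pdlim5 (-0.58) and Cald1 (-0.49) were lower, where 9.13% passed.

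Of 25 genes for calcium handling, phosphatase control and receptors, 22 were measured. With DSS in ATF6aKO 4 rose and 0 fell, against 6.33% of all genes, and in ATF6bKO 2 rose and 0 fell, against 12.9%. Ednrb, the endothelin receptor type B, rose by 1.67 ± 0.33 (SE; adjusted p = 0.0247, limma) in ATF6aKO and by 1.39 ± 0.33 (adjusted p = 0.0279, limma) in ATF6bKO. It read 0.88 and 0.07 with DSS in ATF6aKO, against -1.07 and -1.32 untreated, and 0.49 and 0.44 with DSS in ATF6bKO, against -0.78 and -1.07 untreated. Rgs2, which damps signals from contractile receptors, rose by 1.17 ± 0.23 (adjusted p = 0.0223, limma) in ATF6aKO and by 1.0 ± 0.23 (adjusted p = 0.0225, limma) in ATF6bKO. Prkg1, the kinase through which cyclic GMP relaxes smooth muscle, rose by 0.84 ± 0.19 (adjusted p = 0.0336, limma) in ATF6aKO. Over both knockouts 9 of 22 rose and 0 fell, where 29.1% of all genes passed, with Ednrb (1.53), Rgs2 (1.09) and Pde5a (0.55) the largest. Ednrb and Rgs2 are active in cells other than muscle too.

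In WT, 4 of these 22 were higher under the DSS title and 3 lower, where 31.7% of all genes passed. Ednrb was higher by 1.22 (adjusted p = 0.0245, limma) and Cacna1h, a calcium channel, by 1.19 (adjusted p = 0.00598, limma). Chrm2, a muscarinic receptor of gut muscle, read -3.81 and -3.65 under the DSS title, against -6.58 and -6.12 under the UT title, with an adjusted p of 0.00181 by limma. It was well above background on 1 of the 2 WT titled UT arrays, so the size of its difference is not exact. The lower ones were Ppp1r14a (-0.96), Rgs2 (-0.73) and Gucy1b1 (-0.67). For ATF6aKO minus WT 3 were higher and 3 lower, and for ATF6bKO minus WT 2 were higher and 5 lower, where 35.3% and 29.4% of all genes passed. Pln (phospholamban, a brake on the calcium pump) was lower in both knockouts, with a log2 difference of -2.02 for ATF6aKO minus WT (adjusted p = 0.0022, limma) and -2.24 for ATF6bKO minus WT (adjusted p = 0.00121, limma). Rock2, a kinase that restrains myosin phosphatase, was at -1.30 for ATF6aKO minus WT and -0.76 for ATF6bKO minus WT, and the pump gene Atp2a2 at 0.85 and 0.86. Rock1 (-0.72), Ppp1r12b (0.63) and Pde5a (0.56) passed in ATF6aKO minus WT, and Pde5a (0.90) in ATF6bKO minus WT. For ATF6aKO minus ATF6bKO, Rhoa (0.50) was higher and Rock1 (-0.55), Rock2 (-0.54) and Gucy1a1 (-0.48) lower.

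Of 15 regulators of the smooth muscle programme, 12 were measured. In ATF6aKO 0 of 12 passed with DSS, where 6.33% of all genes did. In ATF6bKO 2 of 12 passed, where 12.9% of all genes did: Mef2c, a transcription factor of muscle and other tissues, rose by 1.43 ± 0.33 (SE; adjusted p = 0.0233, limma), and Gata6 fell by 0.66 (adjusted p = 0.0487, limma). Over both knockouts Foxf1 (0.49) and Heyl (0.31) rose and Gata6 (-0.62) fell. Between the WT groups 3 were higher under the DSS title and 0 lower, where 14.7% of all genes passed as higher. These were Mef2d, at 1.67, the serum response factor partner Mrtfa, at 0.71, and Heyl, a Notch target, at 0.59. Mef2d was also higher in the knockouts, at 1.89 for ATF6aKO minus WT and 1.42 for ATF6bKO minus WT, and Klf4 at 0.69 for ATF6bKO minus WT. Mef2d was at 0.47 for ATF6aKO minus ATF6bKO. Tead1 passed in each genotype comparison, at 0.57 for ATF6aKO minus WT, 1.26 for ATF6bKO minus WT and -0.69 for ATF6aKO minus ATF6bKO, but it was well above background on 7 of 12 arrays and on neither WT titled UT array.

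The mean level of several marker lists of other cell types was higher with DSS in ATF6aKO, as that of the contractile genes was. The mean of 11 pericyte and vascular muscle genes was 0.48 and 0.28 with DSS, against -0.33 and -0.29 untreated. Fibroblast and matrix genes (12 measured) gave 0.56 and 0.29, against -0.25 and -0.41, and mesothelial genes (8 measured) 1.23 and 0.93, against -0.10 and -0.18. Enteric neuron and glia genes (11 measured) gave 0.21 and 0.04, against -0.55 and -0.52. Of these lists, 4 of 11 pericyte, 1 of 12 fibroblast, 2 of 8 mesothelial and 3 of 11 neuronal genes rose by limma, and 0 fell, where 6.33% of all genes passed. Genes of interstitial cells, which lie within the muscle layers, gave -0.06 and 0.10 with DSS, against -0.14 and -0.02 untreated, and 0 of 8 rose and 2 fell. The 15 epithelial genes gave 0.02 and 0.09 with DSS, against -0.19 and -0.01 untreated. Of these, 12 differed by more than 0 and 0 passed. The part of these cell types in the difference of the contractile genes was not tested. Cox4i2, Ndufa4l2 and Rergl of the pericyte list and Ret, Sox10 and Gfap of the neuronal list were not among the genes tested. Leukocyte genes (12 measured) gave 1.17 and 0.59 with DSS in ATF6aKO, against -0.53 and -0.32 untreated, and 3 of 12 rose by limma.

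In ATF6bKO leukocyte genes gave 1.77 and 1.37 with DSS, against -1.24 and -1.07 untreated, and 9 of 12 rose by limma, where 12.9% of all genes passed. Fibroblast genes gave 0.34 and 0.67 with DSS, against 0.06 and -0.06 untreated. Pericyte genes gave 0.16 and 0.30, against -0.08 and -0.16, and neuronal genes 0.18 and 0.26, against -0.35 and -0.28. Mesothelial genes overlapped, at 0.25 and -0.48, against -0.76 and -0.07, as did interstitial genes, at -0.09 and 0.22, against -0.19 and 0.11. By limma 1 of 12 fibroblast, 2 of 11 pericyte and 3 of 11 neuronal genes rose. Of 8 mesothelial genes 0 passed, and 1 of 8 interstitial genes fell. The contractile genes overlapped between the same arrays. In WT, fibroblast genes gave -0.26 and -0.57 under the DSS title, against 0.09 and -0.47 under the UT title, and pericyte genes -0.05 and -0.02, against 0.07 and -0.36. The pericyte list was lowest on WT titled UT replicate 2, at -0.36, and the fibroblast list on WT titled DSS replicate 2, at -0.57. Lowest on WT titled UT replicate 1 were the contractile genes, the further contractile and cytoskeletal genes (-0.42) and the regulators (-0.59). Neuronal genes gave 0.38 and 0.56 under the DSS title, against 0.17 and -0.10 under the UT title.

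**Figure D4:**
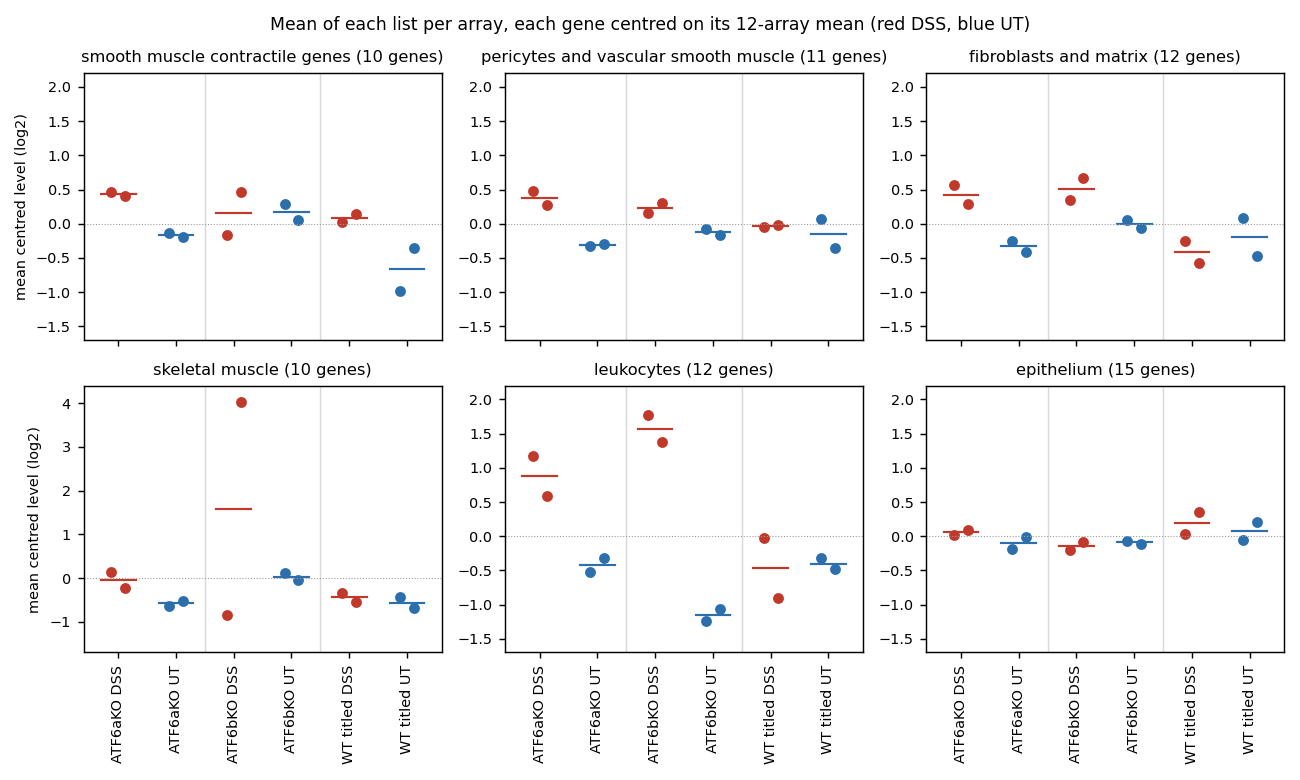
Mean over each gene list of the level centred on each gene's 12-array mean (log2), for each array, with red points for DSS, blue points for UT and lines at means of 2 arrays. The vertical scale of the skeletal muscle panel is wider: ATF6bKO DSS replicate 2 stands at 4.03 there, and the contractile genes of WT titled UT replicate 1 stand at -0.98.

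The contractile genes differed in how closely they tracked each other. Pearson's r of a gene with the mean of the other 9 over the 12 arrays was 0.948 for Acta2, 0.878 for Hspb6 and 0.859 for Actg2, and it was 0.479 for Tagln and 0.542 for Cnn1. On the 8 knockout arrays alone it was 0.991 for Acta2, 0.874 for Cnn1 and 0.796 for Tagln, with the lowest value, 0.405, for Synm. The arrays share 3 slides and the low WT titled UT arrays, so these coefficients are a description and carry no test.

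Among 12709 other named genes, the pattern of the set's mean over 12 arrays was most closely followed by Slc6a17 (r = 0.960), Tspan9 and Kremen1 (0.954 each), Lamb2 (0.949), Actc1 (0.945), and Flna, Esyt1 and Cryab (0.943 each). Lamb2 encodes a laminin of basement membranes, Flna encodes filamin, an actin cross-linker, and Cryab a small heat shock protein related to Hspb6. After the 6 group means were taken out, r ran between 0.827 for Esyt1 and 0.976 for Actc1. With 2 arrays a group, this r rests on a single gap between replicates in each group. The gap in the set's mean was widest in WT titled UT (SD 0.443) and ATF6bKO DSS (SD 0.441). These coefficients too are a description and carry no test. Actc1, cardiac actin, read 5.43 and 5.29 with DSS in ATF6aKO, against 4.88 and 4.69 untreated. It read 4.46 and 4.69 under the DSS title in WT, against 2.68 and 3.95 under the UT title. Acta1, skeletal actin, read -0.09 on WT titled UT replicate 1, against 1.42 on WT titled UT replicate 2, the lowest of the other 11 arrays. The actin genes are close in sequence, and whether their probes read each other's transcripts was not tested.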

How the data were processed

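Per the labels, total RNA was labelled with Cy3 and hybridised to 1-colour Agilent arrays. Per the file headers and the submitters' processing notes, the authors extracted the processed signal with Agilent Feature Extraction 10.7.1.1; this deposited intensity is background-subtracted and not scaled between arrays. The authors' deposited value table holds log2 values of the same arrays, with column medians between -0.47 and 0.24. Its scale ran with the arrays and its scaling between arrays is unknown, so it served as an alternative.

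Control spots (1639 of 45018) and outlier spots (54 to 108 per array) were left out. Between 66.0% and 76.9% of spots were well above background; the number of arrays limits the precision. Probes well above background on both arrays of at least 1 group were kept (30428 of 41174), with 1 probe a gene, the one with the highest mean level. Accessions were named through RefSeq on GRCm38.p6, which matched 25193 probes (61.2%); the array's annotation came in 2 versions, which gave the probes of the contractile genes the same accessions. Tests used limma 3.58.1 in R 4.3.3, checked on simulated data. A normexp alternative used median spot signals, because the mean signal is not a column of the files used here.

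The contractile genes and the other lists were chosen with earlier results of these data known. From each further smooth muscle list, no more than 3 genes past the threshold in a direction were named per comparison, those with the largest difference. Some genes that this rule selects are not reported here.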

Additional observations from a re-analysis of the deposited data

How the results depend on the processing

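Of 1570 pairs of a contractile gene's difference and an alternative, 1487 kept their direction where called and their side of the threshold, 39 lost it, 43 passed it anew and 1 reversed. Of the 1487, 50 changed sign while past the threshold in neither. The mean difference over the 10 genes moved by more than the spread between replicates in 9 of 169 cases. No alternative changed the count of 0 for DSS in ATF6bKO or for the difference of responses. Same-numbered arrays shared little deviation from their group means over all genes, with correlations of 0.011 in WT, -0.018 in ATF6bKO and 0.075 in ATF6aKO. This check cannot exclude a pairing of samples with small effects. With a replicate block the count for ATF6aKO minus WT was 1, Acta2, because Hspb6 missed at an adjusted p of 0.0552 by limma. The counts were 3 for WT titled DSS minus WT titled UT (without Actg2), 1 for ATF6bKO minus WT and 0 elsewhere.

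Counts of contractile genes past the threshold moved as follows, and the cause was not tested. For WT titled DSS minus WT titled UT the count of 4 was 1 with only the arrays compared, and 1 to 6 over single arrays left out. For DSS in ATF6aKO it was 0 to 1 over single arrays left out. For DSS over both knockouts the count of 0 was 1 with normexp, 1 in the authors' value table as deposited or centred on column medians (an alternative chosen after seeing the data), 1 among probes well above background on all arrays, and 0 to 4 over single arrays left out. For ATF6aKO minus WT the count of 2 was 1 with quantile normalization, 1 with no filter on dim probes, 1 with the second probe of a gene, 0 with WT treatment by description and 9 in the value table, with 0 to 3 over single arrays left out. For ATF6bKO minus WT the count of 1 was 3 with normexp, 6 in the value table and 2 after its columns were centred, 2 among probes well above background on all arrays, 0 when a gene's probes were averaged, 0 with the second probe and 2 with the third, with 0 to 2 over single arrays left out. For ATF6aKO minus ATF6bKO the count of 0 was 3 with normexp, 1 with quantile normalization and 1 among probes well above background on all arrays, with 0 to 1 over single arrays left out. In the value table the median over all genes stood 0.64 higher for ATF6aKO minus WT and 0.62 higher for ATF6bKO minus WT than on the scanner levels. Myh11 in ATF6aKO minus WT reversed there, at 0.56 (adjusted p = 0.0178, limma) against -0.10.

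With 2 arrays a group, small differences in contractile genes could not be told from the spread between arrays.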
